A study of Drosophila melanogaster with 20 samples.

Results

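The regions described here are the m6A peaks of adult yw females that were annotated to the 5′ UTR and had no counterpart in adult yw males. They were chosen by the peak calls of both sexes, which rest on the IP and input reads. A female peak entered the set when no peak of the yw male list covered more than 50% of the smaller of both, judged by the outer ends of the peaks on the same chromosome. Of the 5562 5′ UTR peaks of yw females, 1379 met this rule, a share of 24.8% (Wilson 95% interval 23.7% to 25.9%), out of 20540 peaks in the female list and 98715 in all 5 lists of the series. They were assigned to 1197 genes. The other 4183 female 5′ UTR peaks had a male counterpart, here called a partner, and 487 of the 4620 male 5′ UTR peaks had no female partner (10.5%).

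All flies were whole adults of 1 to 2 days, grown on standard cornmeal food. Besides yw females and yw males, which carry the y and w marker mutations and served as the controls, the series held males of 3 mutants, labelled Mettl3SK2/Df (in which the SK2 allele faces a deletion of the gene), Mettl14SK1 and Hakai4. Each of these 5 groups had 2 libraries of RNA precipitated with an antibody against m6A (IP) and 2 libraries of the RNA before precipitation (input). There were no mutant females, so the mutant lists could be set only beside males. In the input libraries, 5 of 5 germline markers of the ovary, 6 of 6 follicle cell genes and 3 of 3 yolk protein genes were higher in every yw female library than in every yw male library, and 11 of 12 testis genes and 6 of 6 accessory gland genes were higher in every yw male library. The labelled sexes thus had their markers. In FPKM, fragments per kilobase of transcript scaled to the mapped total of the library, each mutated gene was lowest in its own mutant. Mettl3 had 2.43 and 2.10 FPKM in Mettl3 males, against 5.22 and 5.17 in yw males, Mettl14 had 1.77 and 2.02 in Mettl14 males, against 4.19 and 4.25, and Hakai had 0.767 and 1.21 in Hakai males, against 2.47 and 3.36. Log2 expression correlated at 0.996 between the female libraries and at 0.978 between the male libraries, and at no more than 0.523 between the sexes. In RNA of whole flies, fewer cells of a type and less RNA per cell cannot be told apart.

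N6-methyladenosine (m6A) is a methyl mark on adenosines inside mRNA. It is written during transcription by the Mettl3 and Mettl14 methyltransferase pair together with accessory proteins, among them Hakai and Nito, and it is read by proteins of the YTH family. In Drosophila the mark is best known for its part in splicing of Sxl, the master gene of female development, and much of it lies near the start of transcripts. Ovaries make up a large share of the RNA of a female fly, and testes and accessory glands of that of a male.

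The rule itself fixed how the peaks stood between the sexes, so their strength is given as a description. The fold enrichment is the ratio of IP over input that exomePeak gave for the pooled libraries of a group, so no peak has a replicate check. Its median was 1.93 in the female-only peaks and 5.53 in those with a male partner. In the male-only 5′ UTR peaks it was 2.3, by the ratio in yw males. Of the female-only peaks, 742 (53.8%) had a fold enrichment under 2, 136 (9.86%) reached 5 and 31 reached 10, whereas 54.5% of the peaks with a partner reached 5. An FDR of at most 0.01 was listed for 1055 female-only peaks (76.5%) and for 97.0% of the partnered ones. Most of the set therefore had a low ratio, with a small tail of high ones. Weak and strong refer here to this ratio alone, since the number of reads behind it is not known. Among the 31 peaks that reached 10, 25 had the same fold enrichment as another of them and 6 had both a value of 12.9 and an FDR of 0.00468. At the edge of the rule, peaks of CG32276, CG10809 and Flo2 were covered by exactly 50% and were included, and a peak of unpg at 50.2% and 2 of CG43729 at 50.3% were not. Of the 1379 peaks, 1279 shared no base with any male peak, and 69 of these lay within 100 bases of one.

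**Figure D1:**
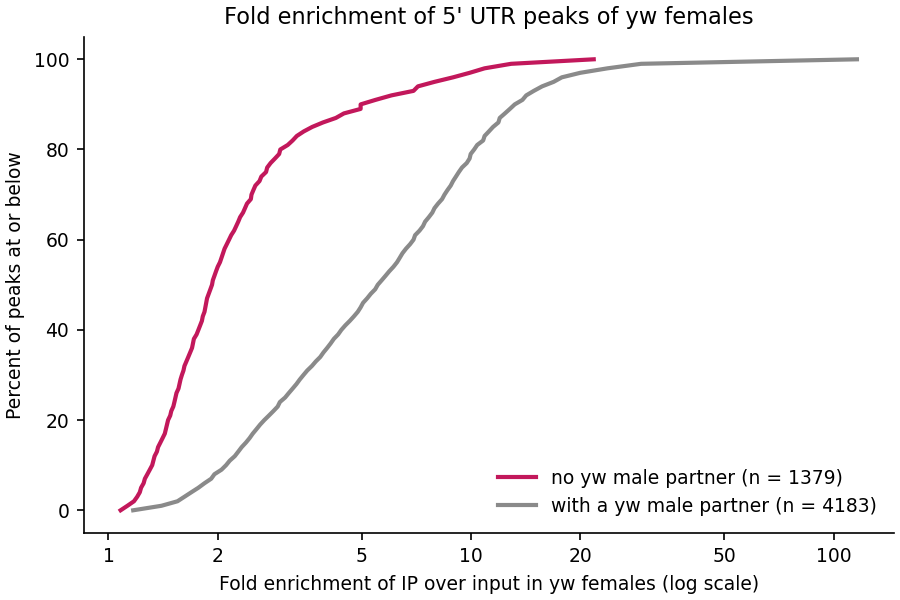
Cumulative percent of 5′ UTR peaks of yw females (vertical axis) at or below a fold enrichment of IP over input (horizontal axis, log scale), for the 1379 peaks without and the 4183 with a yw male partner. The curve of the female-only peaks lies to the left, with a median of 1.93 against 5.53, and ends at 21.8.

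The female-only peaks were also short and lay farther into the transcripts. Their median width from end to end was 240 bases, against 1193 bases for the peaks with a partner, and counted over exons it was 209 against 560 bases. A peak within 1 exon was listed in 68.02% of cases (65.5% to 70.4%), against 37.1% (35.7% to 38.6%). The annotated start site of the transcript lay within the peak for 43.9% (41.3% to 46.5%) of the female-only peaks and for 75.3% (73.9% to 76.5%) of the others, and 17.2% against 9.92% were more than 1000 bases from it. The 487 male-only 5′ UTR peaks were alike, with a median width of 181 bases and 75.8% within 1 exon. The start site lay within 40.2% of them, and 27.3% were more than 1000 bases from it. These traits were thus not particular to the female-only peaks. A short peak is more readily left without a partner by the rule, so width is not independent of the choice of peaks. Chromosome X held 21.97% (19.9% to 24.2%) of the female-only peaks and 18.0% (16.9% to 19.2%) of those with a partner. These intervals cover counting error only, because peaks of a list are not replicates.

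Several of the peaks were not independent of each other. Counting intervals with the same ends and exons once left 1344 of the 1379. Of the genes, 1061 had 1 such peak, 119 had 2 and 9 had 4 or more. The gene mod(mdg4), which encodes a family of BTB-domain chromatin proteins through alternative 3′ exons, alone held 21, but these were 9 distinct intervals in 3 stretches of chromosome 3R, from 21356811 to 21356892, from 21357139 to 21357370 and from 21371336 to 21371824. The exons of 309 peaks (22.4%) touched another gene as well as, or in place of, the assigned one. Their RNA values may thus belong partly to a neighbour. Among these 309 were peaks of nos, mael, cup, exu, CG1677, CG13073, trh, Spn42Da, ca, CG5157, CG9130, CG43675 and mod(mdg4). For 1073 peaks (77.8%) the gene had some peak in yw males, and for 354 (25.7%) it had a 5′ UTR peak there, which in some genes overlapped the female one by less than the rule asks. A female-only peak was thus usually a position, rather than a gene, missing from the male list.

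The genes were mostly transcribed in both sexes at like levels. Of the 1197 genes, 1195 were in the expression table, whose unit is FPKM. The median FPKM of these genes was 11.04 and 10.99 in the female libraries, against 10.9 and 10.6 in the male libraries. The medians over all 17276 genes of the table were 3.09 and 3.02 in females, and 5.53 and 5.53 in males. A mean FPKM of at least 1 in both sexes was found for 1043 genes (87.3%, interval 85.3% to 89.1%), against 57.3% of all genes and 85.6% of the genes of partnered peaks, and 773 genes (64.7%) reached 5 in both. The RNA was under 1 FPKM in males for 90 genes (7.53%) and under 1 in females for 125. A set of 10 genes, among them nos, tor, piwi, stet, wisp and ndl, reached 5 FPKM in females with under 1 in males. The reverse, 5 FPKM in males with under 1 in females, was found for 33. No share over all genes stands beside these counts, so they are a description only.

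Between the sexes, RNA was compared with limma on log2(FPKM + 1), and a gene was called when its Benjamini-Hochberg adjusted p was under 0.05 and its log2 fold change was at least 1 in size. A mean FPKM of at least 1 was reached by 1120 of the genes, of which 99 were higher in yw females (8.84%) and 99 were lower (8.84%). Over all 12778 genes tested, 9.14% were higher and 22.9% were lower. The share that was higher was near the background and is no result about these genes, and the share that was lower was under it. The genes of partnered 5′ UTR peaks had shares of 6.26% and 8.90%, so a low share of male-biased genes was not particular to the female-only peaks. The genes of the male-only 5′ UTR peaks had shares of 5.78% higher and 27.5% lower in females. The median log2 fold change, yw females over yw males, was 0.07 for the genes of the female-only peaks, 0.00 for those of partnered peaks, −0.25 for those of male-only peaks and −0.03 for all genes tested. For 641 of the 1120 genes (57.2%) it was under 0.5 in size, and for 918 (82.0%) under 1. With the libraries set to equal medians, all log2 fold changes moved up by 0.37, and 212 of the genes were then higher and 77 lower, against 17.8% and 20.9% of all genes tested. The input libraries also entered the peak calls, so these counts describe the genes and are no independent support for a difference in methylation.

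**Figure D2:**
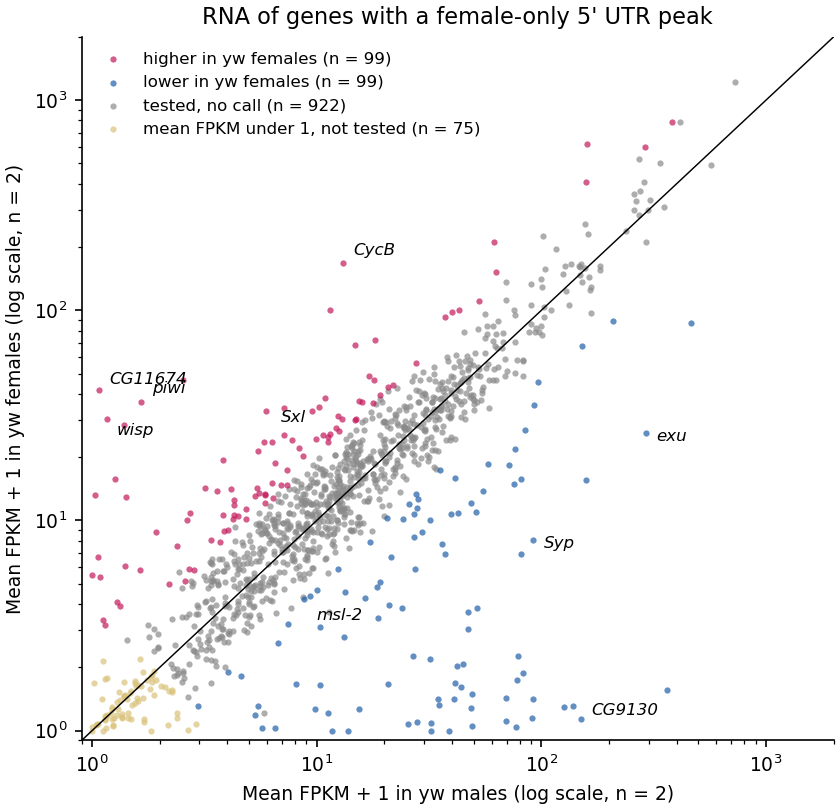
Mean FPKM + 1 of the 1195 genes with a female-only 5′ UTR peak in yw females (vertical axis) and in yw males (horizontal axis), both on log scales, with 1 point per gene and 2 libraries per sex. Most points lie along the line of equal levels, 99 genes are higher and 99 lower in yw females, and a group of genes at the lower right has high RNA in males and almost none in females.

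**Figure D3:**
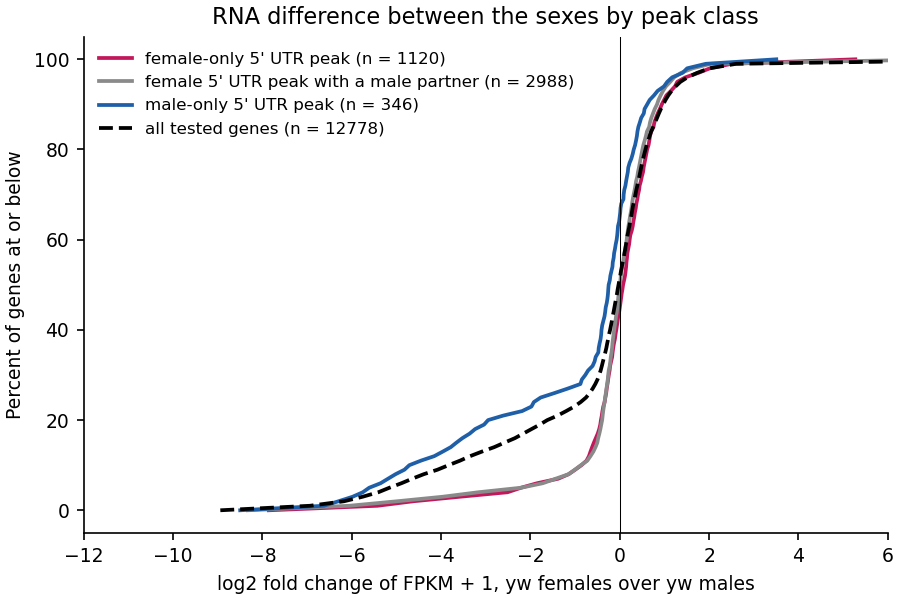
Cumulative percent of tested genes (vertical axis) at or below a log2 fold change of yw females over yw males (horizontal axis), by the class of their 5′ UTR peaks. The curve of the 1120 genes with a female-only peak runs close to that of genes with a partnered peak, and both lack most of the long tail below 0 that all tested genes and the genes of male-only peaks show.

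Among the genes that were higher in females and whose peak had an FDR of at most 0.01, the 8 largest differences included several genes with known roles in the female germline. CG11674 had 41.7 and 39.6 FPKM in females, against 0.0592 and 0.0941 in males, with a log2 fold change of 5.27 (95% interval 5.05 to 5.49, adjusted p = 1.3e-05 from limma), and its peak had a fold enrichment of 1.76. The gene wisp encodes a cytoplasmic poly(A) polymerase that activates stored mRNAs in the late oocyte. It had 29.9 and 29.1 FPKM in females, against 0.180 and 0.142 in males, and its log2 fold change was 4.71. Its peak, on chromosome X from 11894152 to 11894882, was among the stronger ones, with a fold enrichment of 6.06. The list of Mettl14 males held a partner of this peak with a fold enrichment of 6.65. The gene piwi, which silences transposons with piRNAs in the germline, had 35.3 and 36.0 FPKM against 0.732 and 0.587 in males, and a log2 fold change of 4.47. In each of these 3 genes both female libraries lay far above both male libraries.

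The posterior determinant nos had 27.5 and 27.3 FPKM in females and 0.413 and 0.361 in males. The mitotic cyclin CycB had 166 and 166 FPKM in females and 11.6 and 12.6 in males. CG17018, CG13083 and stet, a rhomboid protease of the germline, completed the 8 genes with log2 fold changes between 3.64 and 5.27. Apart from that of wisp, their peaks were weak, with fold enrichments between 1.51 and 2.14. Of these 8 genes, CG17018 alone had another 5′ UTR peak in yw males.

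**Figure D4:**
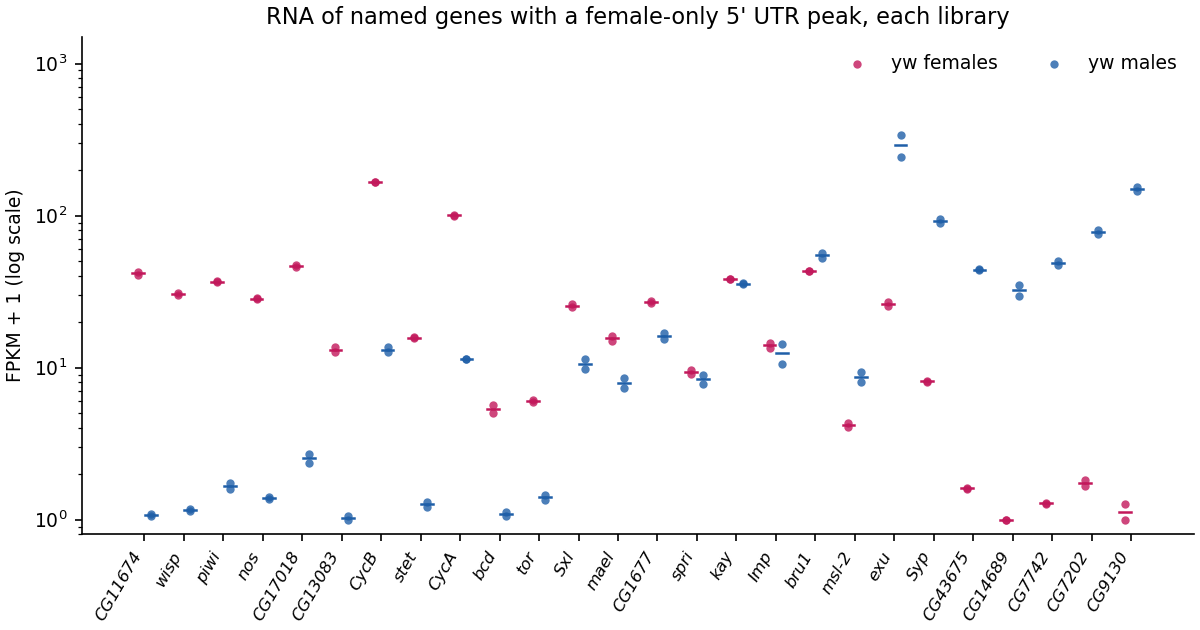
FPKM + 1 (vertical axis, log scale) in each library for named genes with a female-only 5′ UTR peak, with yw females on the left and yw males on the right of each gene, points for the 2 libraries and a bar for their mean. Genes on the left are higher in females, those in the middle are at like levels, and those on the right are lower in females.

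Among the lists of female germline genes, genes with such a peak were called in both directions. Of 42 maternal and oocyte genes, 25 were higher and 2 lower in females, and 9 had a female-only 5′ UTR peak (21.4%), against 6.92% of all genes in the table. On the list, 20 genes had some female 5′ UTR peak, so the 9 were 45% of these, against 28.5% of the 4192 such genes in all. Of the 9, bcd, nos, piwi and tor were higher in females and exu was lower, beside 9.14% and 22.9% of all genes tested. The morphogen gene bcd had 4.01 and 4.71 FPKM in females and 0.0548 and 0.118 in males, beside a peak with a fold enrichment of only 1.28 and an FDR of 0.0692. The receptor tyrosine kinase gene tor had 5.13 and 4.97 FPKM, against 0.452 and 0.355 in males, and a strong peak on chromosome 2R from 7708580 to 7709184 with a fold enrichment of 7.41. The piRNA gene mael had the strongest peak of the list, with a fold enrichment of 10.9 on chromosome 3L from 22721442 to 22724577. Its RNA was at 15.2 and 14.0 FPKM in females and 7.56 and 6.31 in males, a log2 fold change of 0.98 (0.66 to 1.29, adjusted p = 0.00276 from limma) that fell just short of the call.

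The gene exu, which is needed to localize bcd mRNA and also has transcripts of the testis, had 24.3 and 25.97 FPKM in females against 337 and 243 in males. Its log2 fold change was −3.46 (−3.96 to −2.95, adjusted p = 0.000203 from limma). The male libraries thus held far more of its RNA, and yet its peak on chromosome 2R from 20670784 to 20671083, with a fold enrichment of 3.31, was listed in females alone. The exons of this peak also touched another gene. For BicC and brat, both translational regulators, and for cup, a binding partner of eIF4E, no call was made. The RNA of BicC stood at 18.1 and 18.4 FPKM in females and 19.4 and 19.4 in males, with 2 nearly identical intervals of fold enrichment 4.78.

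Listed genes of meiosis and replication with such a peak were higher in females where they were called. Of 24 tested genes of meiosis and egg activation, 15 were higher and 3 lower in females, where 9.14% and 22.9% of all genes were. A female-only 5′ UTR peak was found in 5 of the 26 on the list (19.2%, against 6.92% of all genes) and of its 10 genes with any female 5′ UTR peak (50%, against 28.5%), of which CycA, CycB, CycE and wisp were higher in females and mei-P26 was not called. CycA had 99.5 and 98.8 FPKM in females and 10.4 and 10.4 in males, with a peak of fold enrichment 3.35 on chromosome 3L from 11832953 to 11833578. CycE, the cyclin of S phase entry, had 6.92 and 7.26 FPKM against 2.27 and 2.52 in males. Of 27 genes of replication and chromosomes, 20 were higher and 0 lower in females by limma (3 lower by an unadjusted p under 0.05 at any size), and 4 had a female-only peak (14.8%, and 57.1% of the 7 with any female 5′ UTR peak). These lists are short, so the shares rest on few genes. Among these, Orc1, a subunit of the origin recognition complex, had 4.93 and 4.70 FPKM in females and 0.567 and 0.710 in males. The replication inhibitor geminin had 37.7 and 34.6 FPKM in females and 15.9 and 13.0 in males. Of 22 follicle cell and eggshell genes, 0 had a female-only 5′ UTR peak, and 14 of the 21 tested were higher in females. Since 7 of the 22 had any 5′ UTR peak in females, a share below the 28.5% of all such genes is not shown.

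Peak and RNA stood in contrast in genes of male-biased RNA. Of the 99 genes that were lower in females, the 5 with the largest differences and a peak FDR of at most 0.01 had almost no RNA in the females in which the peak was listed. CG7202 had 0.675 and 0.824 FPKM in females and 78.8 and 75.2 in males, with a log2 fold change of −5.48 (−5.72 to −5.24, adjusted p = 1.3e-05 from limma) and a peak of fold enrichment 3.52. CG7742 had 0.286 and 0.274 FPKM in females and 46.0 and 48.9 in males, beside a fold enrichment of 8.92. CG43675 had 0.600 and 0.612 FPKM in females and 42.8 and 43.3 in males, but its peak also touched another gene and overlapped a male peak of fold enrichment 10.7 by 11.7%. CG9130, whose peak likewise touched another gene, was listed at 0 and at 0.262 FPKM in the female libraries, against 153 and 144 in males. CG14689 was listed at 0 in both female libraries, against 33.9 and 28.5 FPKM in males, and its peak still had a fold enrichment of 11.9 with an FDR of 0.00851.

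The testis gene dj, which encodes a protein of the sperm tail, was of the same kind. It had 0.487 and 0.629 FPKM in females and 385 and 337 in males, and its peak had a fold enrichment of 4.30 with an FDR of 0.0490. Of the 12 testis markers, dj alone had a female-only peak. The depth behind the ratio is not known from the files used here. The 136 peaks that reached a fold enrichment of 5 lay in 91 tested genes, of which 4 were higher and 19 lower in females (4.40% and 20.9%, beside 9.14% and 22.9% of all genes). Among genes whose peak had an FDR of at most 0.01, 90 were higher and 61 lower, against 99 and 99 of the 1120 tested genes of the set. The split between the directions thus moved when peaks with a higher FDR were left out. No share over all genes stands beside these counts, so they are a description only.

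Of the 8 strongest peaks of the set, 4 lay in genes with too little RNA to be tested, and 0 of the other 4 genes were called between the sexes by limma. Of these, CG1677 passed on its adjusted p of 0.00278 but not on size, with a log2 fold change of 0.74 (0.50 to 0.98), and CG32264 had an unadjusted p under 0.05 and an adjusted p of 0.0725. The highest fold enrichment, 21.8, belonged to CG1677, a gene that the deposited annotation places in mRNA splicing, on chromosome X from 7405229 to 7405797. It had 26.6 and 25.4 FPKM in females and 15.8 and 14.5 in males, and yw males had another 5′ UTR peak in this gene with a fold enrichment of 9.79. CG13073 followed with 19.8, and its peak overlapped a male peak of 23.1 by 5.49%, with 0.105 and 0.196 FPKM in females and 0.226 and 0.291 in males. The Ras effector gene spri had a peak of 18.8 on chromosome X from 10555966 to 10556206, and its RNA of 8.66 and 8.09 FPKM in females lay just above the 6.79 and 7.93 in males, with a log2 fold change of 0.17 (−0.12 to 0.45, adjusted p = 0.232 from limma).

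Of the other genes with the highest values, upd1 (15.9), which encodes a ligand of the JAK/STAT pathway, had 0.111 and 0.0446 FPKM in females and 2.14 and 1.67 in males. The fatty acid desaturase gene Desat2 (13.9) and the receptor gene hec (14.9) were under 0.7 FPKM in every library. CG32264 (15.9) and the tracheal transcription factor gene trh (14.9) overlapped male peaks by 43.1% and 25.8% and so lay within reach of the rule's edge. The RNA of trh was equal in the sexes, with 2.51 and 2.35 FPKM in females and 2.66 and 2.37 in males. The groups of upd1 did not overlap, while those of trh did.

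A set of 412 peaks lay in genes with ample RNA of like level in both sexes. Limits were a peak FDR of at most 0.01, at least 5 FPKM in both sexes and a log2 fold change under 0.5 in size. They do not mean equal RNA, and FPKM is given for the whole gene, so RNA at the peak itself was not compared. The 10 strongest had fold enrichments between 7.93 and 18.8. They included spri and CG32264, the serpin gene Spn42Da (12.9), ca (11.9), the septate junction gene Gli (10.9) and the lipocalin gene Karl (10.9). Within that limit the RNA still differed in Karl (log2 fold change 0.47, adjusted p = 0.00727 from limma), CG9265 (−0.48, adjusted p = 0.00842) and bru1 (−0.34, adjusted p = 0.031). The Fos gene kay had 37.3 and 37.2 FPKM in females and 34.2 and 34.9 in males, and a peak of 9.66 over 3 exons on chromosome 3R from 29781834 to 29789076 that overlapped a male peak by 17.2%. Imp, an RNA-binding protein of the IGF2 mRNA-binding family, had 12.6 and 13.5 FPKM in females and 13.4 and 9.52 in males, and its peak of 8.59 over 4 exons shared no base with a male peak. The translational repressor gene bru1 had 42.0 and 42.4 FPKM in females and 56.2 and 51.4 in males, with a peak of 7.93. The peaks of CG32264, CG9265 and bru1 overlapped male peaks by 43.1%, 41.5% and 40.2%, and the male peaks had fold enrichments of 16.6, 6.78 and 6.92, against 15.9, 8.04 and 7.93 in females. That of spri lay 29 bases from the nearest male peak. In spri, kay and Imp, yw males had a 5′ UTR peak that the female-only peak did not overlap.

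Of 22 genes of sex determination and dosage compensation, 2 were higher and 1 lower in females, and 3 had a female-only 5′ UTR peak. These were 23.1% of the 13 with any female 5′ UTR peak, near the 28.5% over all such genes, so the list as a group did not stand out, and its 3 genes are given for their roles. Sxl had the peak on chromosome X from 7088589 to 7090285, over 2 exons and 2598 bases from the annotated start, with a fold enrichment of 6.24. Its RNA was at 24.1 and 25.1 FPKM in females and 10.4 and 8.84 in males (log2 fold change 1.27), and the male list had a different 5′ UTR peak of the gene with a fold enrichment of 5.33. Its target msl-2 encodes the subunit that confines the dosage compensation complex to males, and Sxl protein is known to bind its mRNA and to retain an intron of its 5′ UTR in females. The msl-2 peak covered 478 bases of chromosome 2L, from 3465635 to 3466112, at the start of the transcript, with a fold enrichment of 6.69 and an FDR of 1.26e-41. The RNA of msl-2 was at 3.32 and 3.10 FPKM in females and 8.40 and 7.09 in males, with a log2 fold change of −1.05 (−1.35 to −0.75, adjusted p = 0.0019 from limma). The groups did not overlap, but the difference was near the threshold and was not called without replicate 1 of yw males (−0.94) or with equal medians (−0.68). The list of Mettl14 males held a partner of this peak with a fold enrichment of 2.06, and those of Mettl3 and Hakai males held none. The gene nito, a subunit of the m6A writer complex, had a weak peak of 1.15 (FDR 0.0933), with 12.08 and 12.03 FPKM in females and 6.459 and 5.931 in males.

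The deposited Gene Ontology terms gave broader groups. Of 235 genes of oogenesis, 42 had a female-only peak, and of the 41 tested 9 were higher and 2 lower in females, beside 9.14% and 22.9% of all genes tested. Of all 227 tested oogenesis genes, 46 were higher and 13 lower, so this direction was that of the whole list. The 42 were 35.6% of the oogenesis genes with any female 5′ UTR peak, against 28.5% of all such genes. Other groups had higher shares, such as mitochondrion (41.5%), proteolysis (38.7%) and mitotic cell cycle (38.3%). Some had lower ones, such as signal transduction (18.3%), so oogenesis did not stand out among the groups. Of 193 genes of mRNA splicing, 25 had such a peak (40.3% of those with any). Of these 25, all tested, 5 were higher and 3 lower in females. The whole list had 45 higher and 11 lower of 191 tested, so the members did not stand out from it. Among the lower genes was Syp, an RNA-binding protein with 7.08 and 7.15 FPKM in females and 93.8 and 87.9 in males. The peak of Syp was wide, with 1258 bases over 2 exons on chromosome 3R, and a fold enrichment of 8.38. It overlapped a yw male peak of fold enrichment 9.47 by 16.1%. Its partners in Mettl3, Mettl14 and Hakai males had fold enrichments of 2.09, 2.51 and 7.97. Of 983 plasma membrane genes, 123 had a peak (24.4% of the 505 with any), with 1 of the 118 tested higher and 0 lower in females by limma (25 lower by an unadjusted p under 0.05 at any size). Few genes of the whole list were called, 36 higher and 48 lower of 797. Of 246 translation genes, 13 had a peak (43.3% of those with any). Genes of ribosomal proteins were the most abundant of the set, a choice made after their values were seen. RpS30 had 1250 and 1196 FPKM in females and 619 and 839 in males, beside a peak of only 1.18. RpL10Ab, with 805 and 771 FPKM against 315 and 444 in males, was called higher.

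The gene mod(mdg4) had 11.25 and 11.02 FPKM in females and 4.56 and 5.23 in males. Its log2 fold change of 1.04 (0.79 to 1.30, adjusted p = 0.00114 from limma) was at the threshold and was 0.96, and so not called, without replicate 1 of yw males. On chromosome X, 23 of the 243 tested genes with a female-only peak were higher and 11 lower in females (9.47% and 4.53%), with a median log2 fold change of 0.29. All tested genes of this chromosome had shares of 13.3% and 18.4% and a median of 0.17. The 861 genes on the arms of chromosomes 2 and 3 had a median of 0.02, beside −0.06 for all genes there.

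The lists of the mutant males were not used by the rule, and they allowed the peaks to be looked for in flies with impaired m6A writing. Of the 1379 female-only peaks, 416 had a partner in the Mettl3 list (30.2%, interval 27.8% to 32.6%), 156 in the Mettl14 list (11.3%, 9.75% to 13.1%) and 123 in the Hakai list (8.92%, 7.53% to 10.5%). The female peaks with a yw male partner were found there in 58.2%, 46.1% and 65.3% of cases, and the male-only peaks in 39.2%, 38.4% and 39.0%. A partner in a male list was the rule for the partnered class, so its higher shares are a description only. For the female-only peaks the Mettl3 share lay above the other mutants' intervals, but for the 136 that reached a fold enrichment of 5 it did not, with 22.8% (16.5% to 30.5%) against 16.2% (10.9% to 23.3%) in the Mettl14 list and 15.4% (10.3% to 22.5%) in the Hakai list. For all partnered peaks together the Hakai share was the highest, and for the male-only peaks the intervals overlapped. The Mettl3 list was also the longest list, with 21050 peaks, against 18295 for Mettl14 and 18677 for Hakai. A partner in the Mettl3 list alone was found for 274 female-only peaks (19.9%, 17.8% to 22.1%) and for 5.59% (4.94% to 6.33%) of the partnered ones. The peaks found in Mettl3 males were weak there, with a median fold enrichment of 1.71, and 7 of the 416 reached 5.

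Of the 662 female-only peaks between 1.5 and 2.5 in fold enrichment, 35.3% had a Mettl3 partner, 12.2% a Mettl14 partner and 8.01% a Hakai partner. For the 639 partnered peaks in this band the shares were 65.6% (61.8% to 69.2%), 51.3% (47.5% to 55.2%) and 52.4% (48.6% to 56.3%). In this band a highest share in the Mettl3 list was thus not particular to the female-only peaks. Of all female-only peaks, 900 (65.3%) were in none of the mutant lists and 61 (4.42%) were in all of them. CG5157, whose peak had a fold enrichment of 12.9 in yw females, was among these 61, with values of 10.7 in males of Mettl3, 2.90 in those of Mettl14 and 2.80 in those of Hakai. CG42268 had 6.54 in yw females and 7.56, 3.66 and 4.89 in the mutants, and its overlap with a yw male peak was 48.6%. Some named peaks had a partner in a single mutant list. In Hakai males these reached 18.7 for CG13073, 6.53 for trh and 5.6 for bru1. In Mettl3 males they reached 11.7 for hec and 5.36 for Orc1, but 1.77 for CG7742 and 1.76 for CG14689. Each list is a single call on pooled libraries, so the error between replicates of these shares is not known.

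**Figure D5:**
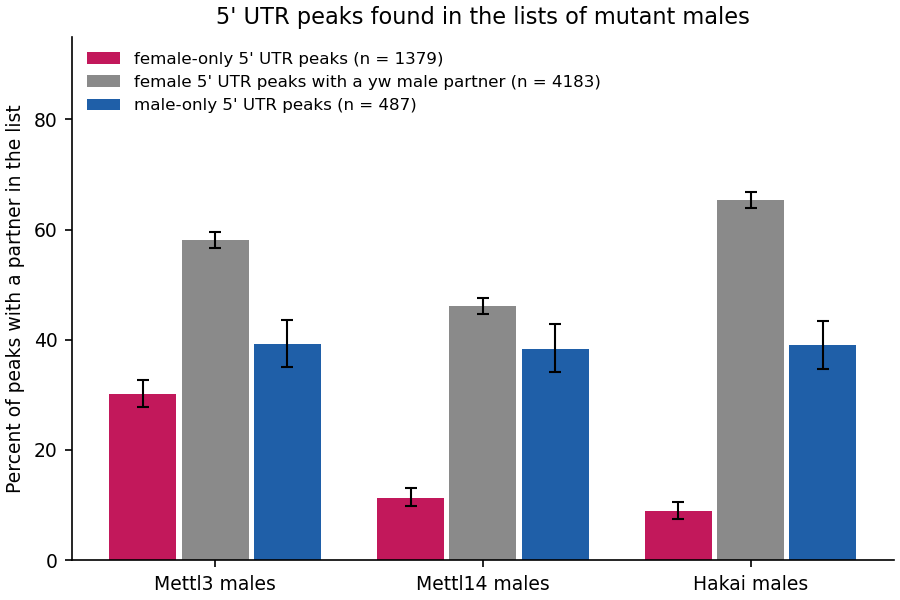
Percent of 5′ UTR peaks with a partner in the peak lists of Mettl3, Mettl14 and Hakai males (vertical axis), for 1379 female-only peaks, 4183 female peaks with a yw male partner and 487 male-only peaks, with bars for Wilson 95% intervals of counting error. The female-only peaks reach 30.2% in the Mettl3 list and 11.3% and 8.92% in the others.

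Few of these genes were called in the mutant males, and the shares were under the background in each comparison. Of 1112 genes tested against yw males, 12 were higher and 4 lower in Mettl3 males (1.08% and 0.36%), beside 2.4% and 1% of all 13079 genes tested. In Mettl14 males 12 were higher and 2 lower, beside 2.97% and 1.06% of all genes, and in Hakai males 11 were higher and 6 lower, beside 2.18% and 1.45%. The 3015 genes of partnered peaks had like shares, with 1.13% higher and 0.63% lower in Mettl3 males, 1.26% and 0.564% in Mettl14 males and 1.16% and 0.398% in Hakai males, so low shares were not particular to the female-only peaks. The count for Mettl3 males was 4 without either of their libraries. The median log2 fold changes of these genes were 0.01, 0.07 and 0.03. The 3 comparisons share the yw male libraries, and the overlap of their calls over all tested genes was not counted. As a description only, 5 of the genes with a female-only peak were called in all 3, each higher in the mutants. They were CG15784, Gss2, CG33665, CG34367 and AGO1. CG15784 had 28.3 and 27.1 FPKM in Mettl3 males, 36.1 and 42.1 in Mettl14 males and 341 and 412 in Hakai males, against 11.2 and 10.9 in yw males. AGO1, the Argonaute of microRNA silencing, had 29.3 and 29.9 FPKM in Mettl3 males, 27.7 and 21.7 in Mettl14 males and 32.1 and 22.1 in Hakai males, against 13.2 and 7.67 in yw males. The mutant libraries lay above both control libraries for both genes.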

How the data were processed

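Trimming (fastp), mapping (HISAT2) and peak calling (exomePeak) were done by the authors, with both IP set against both input libraries of a group, so replicates were pooled. The deposited lists give a fold enrichment (a linear ratio of IP over input), scores (log10 of the p-value and FDR) and the segment and gene assigned with ChIPseeker. The deposited expression table holds FPKM values that the authors made with StringTie from the input libraries. Depth is unknown, since the files give no read totals and low FPKM values were not whole multiples of a read. Coordinates were those of Release 6, since 16054 of 16154 genes matched by symbol had the same ends in the RefSeq gene table.

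Peaks were matched in Python 3.11.15. The 1379 peaks and the gene lists were chosen with earlier results of these data known. Expression was tested with limma 3.58.1 in R 4.3.3 (lmFit, eBayes with trend) on log2(FPKM + 1) where the mean FPKM was at least 1. The fits held 4 yw libraries for the sexes and 8 male libraries for the mutants, with 2 libraries a group. Whether these came from separate cultures is not stated, so p-values measure the spread between these libraries. A fold change on this scale understates that of low genes. In simulated libraries of 12778 genes, 77 of 100 genes changed by 1.5 (log2) and 97 of 100 changed by 3 were called. So were 9 of 12578 unchanged genes. Changes were placed only in genes with a mean log2(FPKM + 1) of at least 3, so the recovery of lower genes was not tested. Named genes were the strongest peaks, the largest called differences with a peak FDR of at most 0.01 in each direction, the strongest peaks with at least 5 FPKM and a log2 fold change under 0.5 in size, genes with the most peaks, peaks in all mutant lists, and called or strong members of the lists. Sequences under the peaks were not analysed here.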

Additional observations from a re-analysis of the deposited data

How the results depend on the processing

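The number of female-only peaks was 1379. It was 2414 when a partner had to cover at least 50% of both peaks, 637 from a fold enrichment of 2 up and 136 from 5 up. The other alternatives gave 1055 to 1551. Of the RNA results between the sexes, equal medians gave 212 higher genes and a median log2 fold change of 0.44, against 99 and 0.07. The median was 0.10 with a mean FPKM of at least 5, 0.048 with no filter, 0.14 for peaks with an FDR of at most 0.01 (61 genes lower), 0.10 for peaks with no overlap, 0.10 for peaks that touch the assigned gene alone (chosen after seeing the data) and between 0.067 and 0.096 leaving out each library. The number of called genes was 25 in Mettl3 males and 23 in Mettl14 males with a pseudocount of 0.1, and 8 in Mettl14 males with a mean FPKM of at least 5. Leaving out each library, it was between 4 and 19 in Mettl3 males. The mutant calls over all genes at these settings are not given here, so these counts are a description only. The cause of the shifts was not tested.

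The share of peaks with a partner in Mettl3, Mettl14 and Hakai males was 32.8%, 13.8% and 11.2% with any overlap, and 19.9%, 5.22% and 4.64% with 50% of both peaks. It was 22.8%, 16.2% and 15.4% for peaks that reached a fold enrichment of 5, and 35.8% in Mettl3 males for peaks with an FDR of at most 0.01. The Mettl3 share was the highest of the 3 in all of these, but its interval overlapped the others for peaks that reached 5. Counting identical intervals once (chosen after seeing the data) gave 29.99%, 10.7% and 8.78%. Of 414 alternative values for 42 named genes, 399 kept their side of the threshold, 0 reversed, 3 lost the call (mod(mdg4) and msl-2) and 12 gained it, in 5 genes. With the replicate number as a block, 101 genes were higher and 101 lower between the sexes, and the calls in mutants were 21, 17 and 18. Libraries of the same number deviated together at r = −0.0027 between the sexes and at 0.0147, 0.5003 and 0.465 against the mutants, which does not establish pairs. The planned search for the RRACH motif was not run, since no genome was used here. No file gives read depth, so a peak missing from a list is not shown to be absent from the RNA.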
